A study of Mus musculus with 16 samples.

Results

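The clustered protocadherins are cell-surface proteins of neurons, encoded by the alpha, beta and gamma gene clusters that lie next to each other on mouse chromosome 18. They were described here in the hippocampus of C57BL/6 wild-type mice. Members were the protein-coding rows of the count table whose symbols begin with Pcdha, Pcdhb or Pcdhg followed by a digit, or by a, b or c and a digit. This rule gave 57 of 46603 rows, of which 14 belonged to the alpha, 22 to the beta and 21 to the gamma cluster. The rule reads symbols alone, but the family was selected on earlier results of these data, in which the p-value of Pcdhb13 at 1 h was among the smallest. The 4 groups were beta-sitosterol at 1 h, vehicle at 1 h, beta-sitosterol at 6 h and vehicle at 6 h, with 4 mice in each. Beta-sitosterol, a plant sterol, was given by intraperitoneal injection at 100 mg/kg, and the times run from injection to dissection. All mice were wild type, and each library came from the whole hippocampus of a different mouse, so cell types were not separated. Libraries held 24815581 to 31266644 counted reads.

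Each alpha or gamma gene has a large variable first exon of its own, which encodes the cadherin repeats and the membrane span, and which is spliced to constant exons shared by its whole cluster. Beta genes lack such constant exons. In most neurons a few alternate promoters are chosen at random through CTCF and cohesin, while the C-type genes at the end of the alpha and gamma clusters (Pcdhac1, Pcdhac2, Pcdhgc3, Pcdhgc4 and Pcdhgc5) are used more uniformly. The proteins bind like to like between membranes, and they are known for self-avoidance of dendrites and axons, for synapse formation and, in the case of gamma proteins, for neuron survival.

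The members share properties that bear on how their reads could be counted. In the GENCODE M21 annotation of GRCm38, the alpha members span positions 36930184 to 37187661 of chromosome 18, the beta members 37264938 to 37524479 and the gamma members 37661793 to 37841873. In the median alpha gene 46.4% of exonic bases were its own, against 55.4% in the median gamma gene and 100% in the median beta gene, since the rest lay in exons shared within the cluster. Reads in the shared exons cannot be assigned to a member, so each value below mainly reflects the variable exon. Of the 50-base windows of a member's own exons, up to 29.2% (Pcdha6) in the alpha cluster occurred identically in another gene. This share was at most 12.0% in the beta cluster (Pcdhb12) and at most 16.8% in the gamma cluster (Pcdhgb1, which matched Pcdhgb2). It was 0 for each of the 5 C-type members. Counts of the near-identical alternates may therefore be split or lost between them.

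Of the 57 members, 54 passed the filter on low counts and were tested among 17055 genes, 12 in the alpha, 21 in the beta and 21 in the gamma cluster. The members not tested were Pcdha4 with 1 to 10 reads per library, Pcdhb1 with 2 to 7 and one of 2 rows named Pcdha11 (ENSMUSG00000102206) with 2 to 11. The other Pcdha11 row (ENSMUSG00000007440), where RefSeq places Pcdha10, was tested. Overlap with other genes was large for several of the weak members. Pcdha4 had 494 bases of exon of its own, and 72.5% of the own bases of Pcdha11 (ENSMUSG00000102206) were covered by genes on the opposite strand. All own bases of Pcdhga10, which had 2 to 11 reads per library, lay opposite Gm26672. The strand setting of the counting is not given in the sources used here, so these low values are uncertain. Pcdhgb8, annotated as a polymorphic pseudogene, did not meet the rule and had 1.23 to 2.47 CPM (reads scaled to a common library size).

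A C-type gene was the highest member of the alpha and of the gamma cluster, and the C-type genes together took 58.5% ± 1.37 of the summed alpha CPM and 47.5% ± 0.63 of the summed gamma CPM (SD, n = 16 mice). CPM were calculated here from the counts with library sizes scaled by edgeR's TMM method. All members together took 0.0473% to 0.0609% of the counted reads of a library. The gamma cluster made up 60.5% ± 0.64 of their summed CPM, the beta cluster 26.9% ± 0.64 and the alpha cluster 12.6% ± 0.52 (SD, n = 16 mice). To compare genes, CPM were divided by the kilobases of own exon that no other annotated gene covers on either strand, where at least 500 bases remained.

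In the gamma cluster Pcdhgc5 was highest with 24.8 CPM per kb, followed by Pcdhgc3 with 20.3 and Pcdhga11 with 11.2. Pcdhgc5 is a C-type protein reported in rat neurons to bind GABA-A receptors, and Pcdhgc3 is one reported to bind Axin1 and to promote dendrite branching in mouse cortex. The third C-type member, Pcdhgc4, the isoform needed for the survival of neurons in mice, had 3.36 CPM per kb, below the cluster's median of 4.34. The lowest gamma member with such a value was Pcdhgb5 at 1.18 CPM per kb. The place of Pcdhga11 depended on the overlap with genes of the opposite strand, since it was number 6 when only genes of its own strand were subtracted. The value of Pcdhgc3 depended on this too, as 46.1% of its own bases lay opposite BC037039 and were left out. It would be lower with only genes of its own strand subtracted, while no own base of Pcdhgc5 lay opposite another gene.

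In the alpha cluster Pcdhac2, which in mice is needed for the even spread of serotonergic axons, had 12.3 CPM per kb. The next members were Pcdha12 with 3.25, Pcdha9 with 1.88 and Pcdhac1 with 1.75 CPM per kb. Pcdhac2 alone took 52.2% ± 1.24 of the alpha sum (SD, n = 16 mice). The lowest alpha member tested was Pcdha8 at 0.150 CPM per kb, with 5 to 19 reads per library, although none of its own bases lay opposite another gene. Pcdha7, with which Pcdha8 shares most of its identical windows, had 1.24 CPM per kb.

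In the beta cluster Pcdhb9 was highest with 4.57 CPM per kb, then Pcdhb17 with 3.36 and Pcdhb7 with 2.71, and Pcdhb21 was the lowest tested with 0.754. Pcdhb1, the first gene of the cluster and not tested, had 0.0503 CPM per kb. The highest beta member therefore lay 90.9-fold above the lowest. The range was 81.9-fold over the 13 alpha members and 20.9-fold over the 20 gamma members with such a value. Left out were Pcdha4 and Pcdhga10. Pcdhga10 had no base free on both strands and the lowest gamma CPM at 0.274, so the ranges of the clusters cannot be ranked. Pcdhb9 and Pcdhb17 together took 19.4% ± 0.82 of the beta sum (SD, n = 16 mice). The rank of Pcdhb12 again depended on the opposite strand, as it was number 4 of 22 members with both strands considered and number 18 with its own strand alone.

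**Figure D1:**
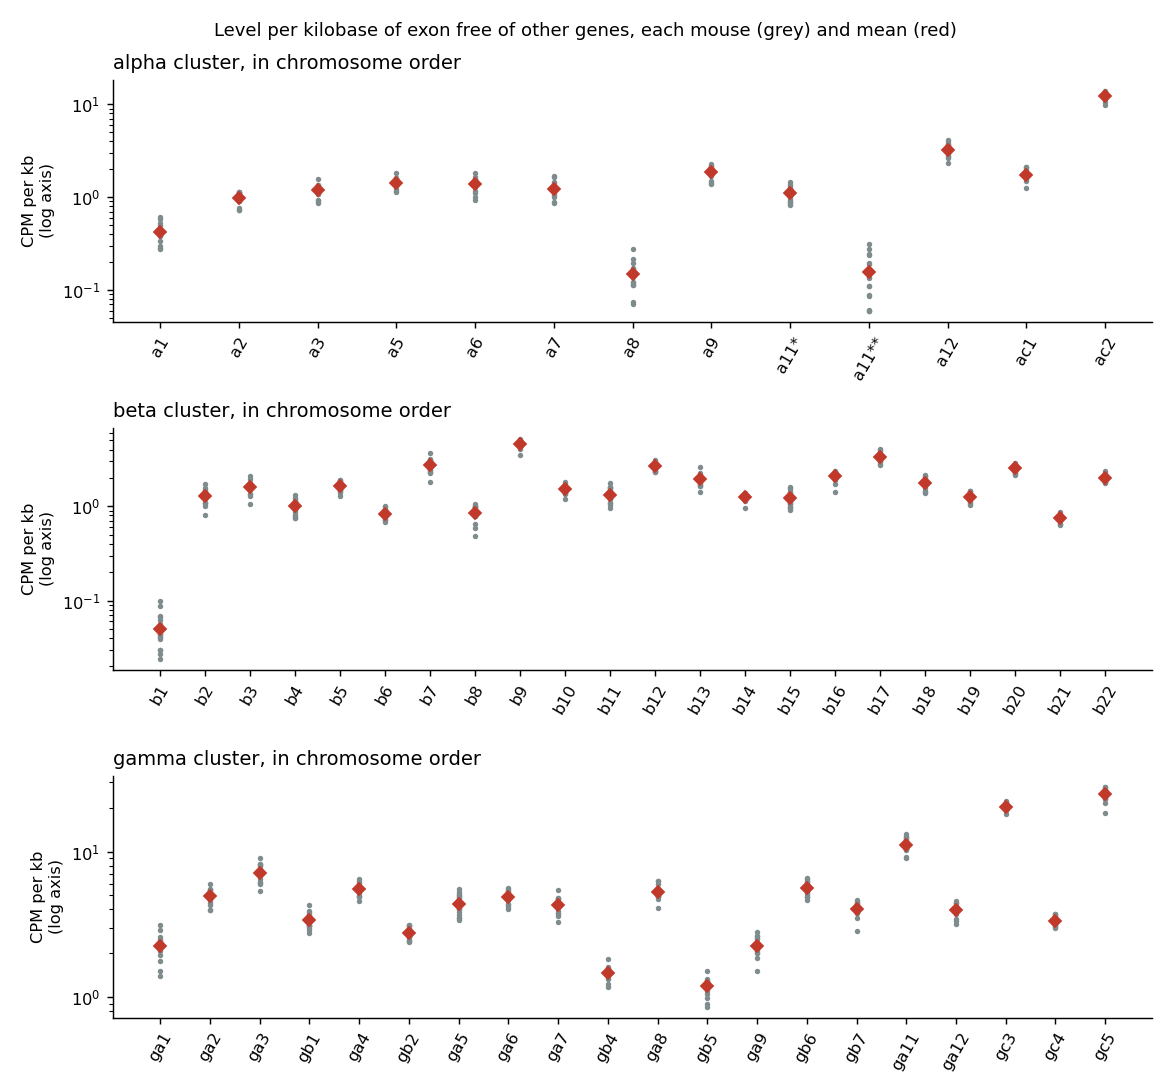
Level of each member in CPM per kilobase of exon free of other genes (log axis), in chromosome order within each cluster. Grey points are the 16 mice and red diamonds their mean; names lack the prefix Pcdh, a11* is ENSMUSG00000007440 and a11** is ENSMUSG00000102206. Pcdhac2 (12.3), Pcdhgc3 (20.3) and Pcdhgc5 (24.8) stand above the other members of their clusters. The value of Pcdhgc3 leaves out the 46.1% of its own bases that lie opposite BC037039.

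The first question of the design is whether beta-sitosterol changed the family's level. Summed over members, each cluster had a higher mean in beta-sitosterol mice at both times, by 1.05-fold to 1.12-fold. Only the alpha sum at 1 h separated the groups. The 1 h contrast was known when the family was chosen, and the beta sum contains Pcdhb13. The 1 h sums and their ratios below are therefore a description, and nothing about the family is read from them. The alpha sums were 69.9, 70.5, 71.8 and 71.8 CPM in beta-sitosterol mice at 1 h, against 55.8, 63.7, 68.9 and 69.3 in vehicle mice. Every beta-sitosterol mouse was above every vehicle mouse, though the highest vehicle mouse was less than 1 CPM below the lowest beta-sitosterol mouse. At 6 h the alpha sums were 75.9, 78.1, 78.6 and 80.1 CPM with beta-sitosterol, against 61.4, 71.4, 74.5 and 76.4 with vehicle, and the groups overlapped.

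The beta sums were 139.2, 153.7, 165.4 and 167.0 CPM in beta-sitosterol mice at 1 h, against 123.0, 139.8, 142.5 and 155.2 in vehicle mice. At 6 h they were 159.9, 161.3, 163.6 and 164.1 CPM with beta-sitosterol, against 139.9, 150.7, 154.5 and 161.1 with vehicle. The groups overlapped at both times, and the beta-sitosterol mice at 6 h lay closest together. Gamma sums averaged 342.2 ± 17.3 CPM with beta-sitosterol and 324.0 ± 27.5 with vehicle at 1 h, and 361.2 ± 10.9 with beta-sitosterol and 342.9 ± 25.1 with vehicle at 6 h (SD, n = 4 each), with overlap at both times.

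The log2 ratios of the mean sums, beta-sitosterol over vehicle, were 0.14 (alpha), 0.16 (beta) and 0.079 (gamma) at 1 h and 0.14, 0.099 and 0.075 in the same order at 6 h. One vehicle mouse at each time lay below the rest in all 3 clusters. Without vehicle mouse 3 the ratios at 1 h were 0.078, 0.10 and 0.024, and without vehicle mouse 11 those at 6 h were 0.077, 0.062 and 0.029. Leaving out vehicle mouse 5, which was highest in its group, gave a gamma ratio of 0.12 at 1 h. In whole-tissue RNA, more cells that express a gene and more RNA of it per cell cannot be told apart.

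**Figure D2:**
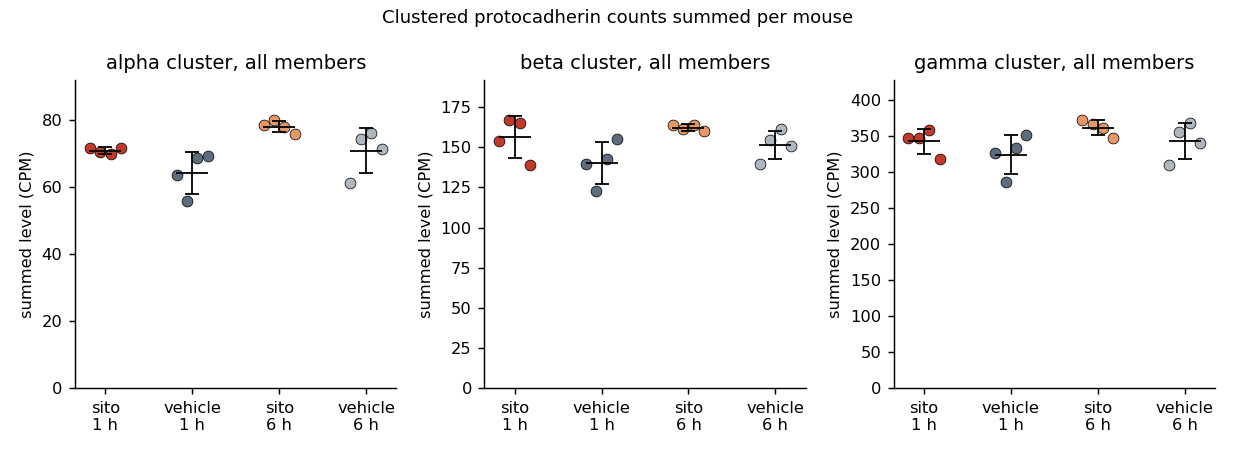
Summed CPM of all alpha, beta and gamma members in each mouse; sito is beta-sitosterol, points are mice, and bars are the mean ± SD of 4 mice. The alpha sums at 1 h range from 69.9 to 71.8 with beta-sitosterol and from 55.8 to 69.3 with vehicle, and 1 vehicle mouse per time is lowest in each cluster. The 1 h contrast was known when the family was chosen.

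At 1 h no member was called at an adjusted p under 0.05 by edgeR's quasi-likelihood test, and 0% of all genes tested were called. The smallest adjusted p of a member was 0.395 (Pcdhb13). Log2 fold changes of 46 of the 54 members were above 0, and of all genes tested 48.7% were. The medians were 0.18 in the alpha, 0.15 in the beta and 0.093 in the gamma cluster, and -0.0039 over all genes. Nothing about the family is read from these figures, because Pcdhb13 and this contrast were known when the family was chosen.

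At an unadjusted p under 0.05 by the same test, 4 members were higher at 1 h, Pcdhb13, Pcdhb2, Pcdhb7 and Pcdha12, beside 5.78% of all genes tested. Pcdhgc3 alone was lower, beside 4.44% of all genes. The count of 4 changed with single mice left out, as did the number of genes higher over all tested (985 of 17055 with all mice). In brackets is that number for each fit. The members' count was 1 without vehicle mouse 3 (494 of 17190) and 2 without vehicle mouse 2 (662 of 17187). It was 9 without beta-sitosterol mouse 9 (933 of 17207) and 12 without vehicle mouse 5 (1713 of 17204). It was 10 without the 4 libraries of lowest choroid plexus content (1543 of 17362). Of those libraries, only vehicle mouse 5 belonged to a 1 h group. The count of 1 lower was 2 without vehicle mouse 3, and 0 without vehicle mouse 4, vehicle mouse 5, beta-sitosterol mouse 8 or those 4 libraries, with no low-count filter, with only the 1 h groups fitted and after a correction for GC content and length.

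Pcdhb13, a member of the beta cluster with few windows shared with other genes (1.803%), had 7.39, 7.53, 7.99 and 9.76 CPM in beta-sitosterol mice at 1 h, against 5.23, 6.03, 6.09 and 6.45 CPM in vehicle mice. These groups did not overlap, and the log2 fold change was 0.46 ± 0.11 (SE, edgeR adjusted p = 0.395). At 6 h it had 6.83, 7.40, 7.83 and 7.93 CPM with beta-sitosterol, against 6.22, 6.56, 7.69 and 8.41 with vehicle. Here the vehicle mice held both the lowest and the highest value, and the log2 fold change was 0.053 ± 0.11.

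Pcdhb2 had 3.40, 3.68, 3.70 and 4.84 CPM in beta-sitosterol mice at 1 h, against 2.27, 2.83, 3.01 and 3.66 CPM in vehicle mice. One vehicle mouse lay within the range of the beta-sitosterol mice, and the log2 fold change was 0.40 ± 0.16 (SE, edgeR adjusted p = 0.439). Pcdha12, the last alternate gene of the alpha cluster, had 5.94, 6.24, 6.86 and 7.12 CPM with beta-sitosterol, against 5.19, 5.30, 5.40 and 5.62 CPM with vehicle. These groups were separate, with a log2 fold change of 0.28 ± 0.12 (SE, edgeR adjusted p = 0.465).

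Groups did not overlap at 1 h for 3 members that were higher with beta-sitosterol, Pcdhb13, Pcdha12 and Pcdhac2, beside 3.04% of all genes tested. Pcdhgc3 was the single member lower without overlap, beside 1.95% of all genes. Members of smallest p among those with negative log2 fold changes included Pcdhgb4 and Pcdha1, both with overlapping groups. Pcdhgb4 averaged 4.95 ± 0.43 CPM with beta-sitosterol and 5.62 ± 0.74 with vehicle (SD, n = 4 each). Pcdha1, at 20 to 41 reads per library, averaged 0.962 ± 0.34 CPM with beta-sitosterol and 1.13 ± 0.14 with vehicle (SD, n = 4 each). At 6 h both had positive log2 fold changes, 0.079 ± 0.11 for Pcdhgb4 and 0.38 ± 0.23 for Pcdha1 (SE).

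At 6 h again no member was called at an adjusted p under 0.05, 0% of all genes were called, and the smallest adjusted p of a member was 0.321 by edgeR (Pcdhb11). Positive log2 fold changes were found for 43 of 54 members, beside 46.1% of all genes. The cluster medians were 0.089 (alpha), 0.064 (beta) and 0.079 (gamma), and the median of all genes was -0.014. With vehicle mouse 11 left out, the beta median was 0.0062 and the gamma median 0.036. The gamma median was 0.037 without the 4 libraries of lowest choroid plexus content and 0.038 with that content as a covariate. Over the 9 alternatives that kept single mice in, the alpha median was 0.074 to 0.13 and the beta median 0.061 to 0.086. Some omissions gave higher medians, as without beta-sitosterol mouse 20 (alpha 0.16) or vehicle mouse 13 (beta 0.14).

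At an unadjusted p under 0.05, 6 members were higher at 6 h (Pcdhb11, Pcdhga5, Pcdhga4, Pcdhac2, Pcdha6 and Pcdhb7) and 0 were lower. This is 11.1% of the members, beside 6.37% of all genes in that direction and 5.77% in the other. The count of 6 changed between fits, and in brackets is the number of genes higher over all tested in the same fit. The count was 1 without beta-sitosterol mouse 18 (859 of 17211) and 2 without vehicle mouse 11 (532 of 17183). It was 3 without vehicle mouse 14 (882 of 17180) and 2 without the 4 libraries of lowest choroid plexus content (665 of 17362). That last fit lacked beta-sitosterol mice 17 and 19 and vehicle mouse 14, so its 6 h groups were smaller. The count was 2 with choroid plexus content as a covariate (932 of 17055), and 10 when only the 6 h groups were fitted (1462 of 16570).

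Pcdhb11 had 6.54, 6.99, 7.02 and 7.85 CPM in beta-sitosterol mice at 6 h, against 4.74, 4.77, 5.31 and 6.00 CPM in vehicle mice. It was the single member whose groups did not overlap at 6 h, beside 5.5% of all genes that were higher without overlap, and no member was lower in this way, beside 3.47%. Its log2 fold change was 0.44 ± 0.14 (SE, edgeR adjusted p = 0.321). At 1 h it had 4.23, 5.48, 5.76 and 7.01 CPM with beta-sitosterol, against 4.51, 5.30, 5.77 and 6.90 with vehicle. Those ranges nearly coincided, and the log2 fold change was 0.0021 ± 0.14. Of its 50-base windows 9.52% occurred in another gene, most often Pcdhb12.

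Pcdhga5, an A-type gamma member, had 12.5, 13.0, 13.4 and 14.1 CPM in beta-sitosterol mice at 6 h, against 9.32, 10.2, 11.4 and 12.6 CPM in vehicle mice. The highest vehicle mouse just exceeded the lowest beta-sitosterol mouse, with a log2 fold change of 0.28 ± 0.11 (SE, edgeR adjusted p = 0.355). Pcdhga4 had 8.88, 9.62, 9.90 and 10.1 CPM with beta-sitosterol, against 7.61, 7.81, 8.51 and 9.60 with vehicle, again with 1 vehicle mouse inside the other range. Pcdha6, named here after its values were seen, had 2.87, 2.97, 3.11 and 3.39 CPM with beta-sitosterol, against 1.91, 2.21, 2.67 and 2.93 with vehicle, with overlap.

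On the other side, the members of smallest p with a negative value at 6 h were Pcdhgc3, Pcdhga3 and Pcdhb4. Pcdhga3 averaged 17.8 ± 1.27 CPM with beta-sitosterol and 19.4 ± 2.61 with vehicle (SD, n = 4 each), and Pcdhb4 averaged 3.73 ± 0.72 with beta-sitosterol and 4.13 ± 0.34 with vehicle. Groups overlapped for both.

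**Figure D3:**
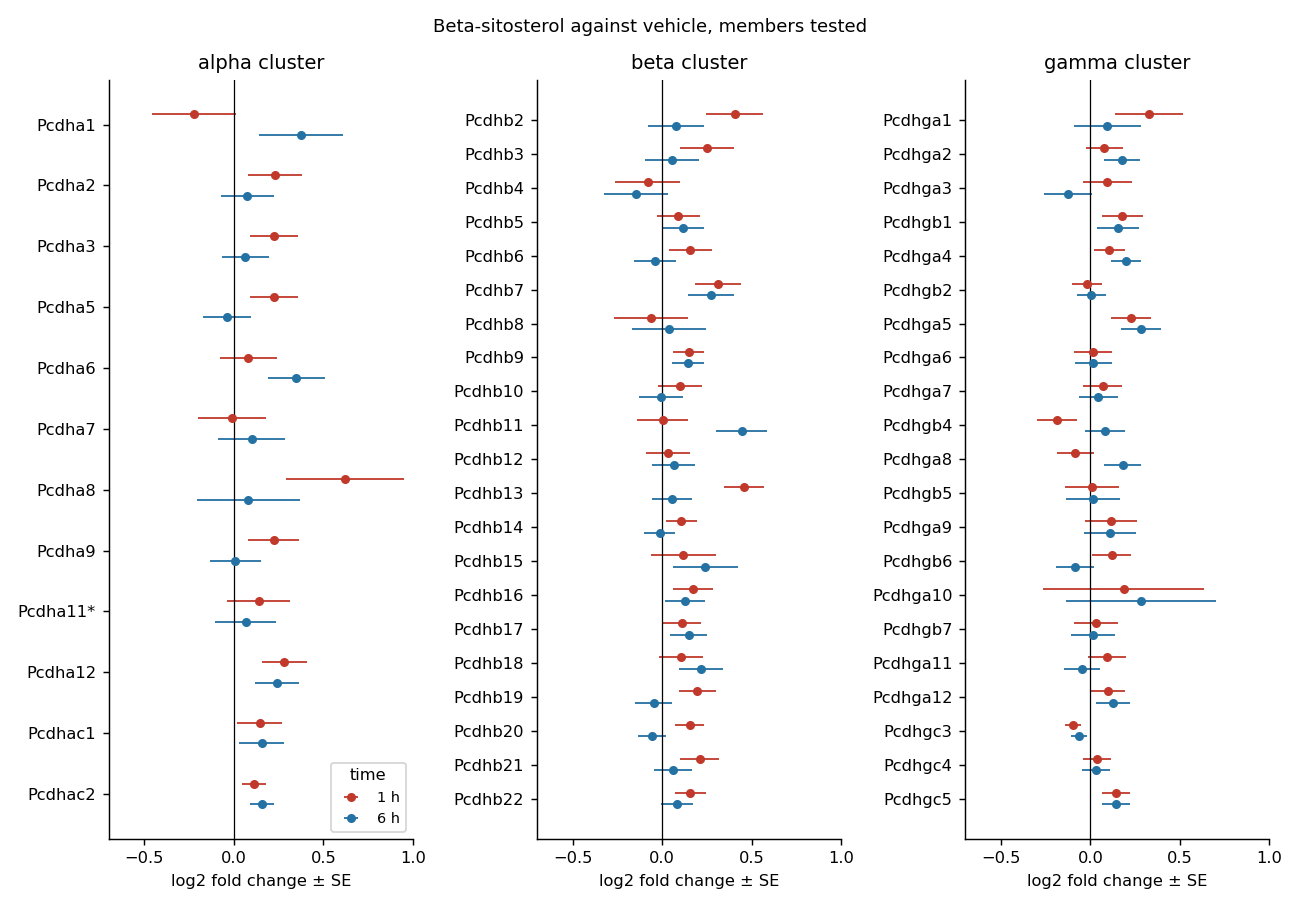
Log2 fold change ± SE of beta-sitosterol against vehicle for the 54 members tested, at 1 h (red) and 6 h (blue), in chromosome order from the top; Pcdha11* is ENSMUSG00000007440. No member passed an adjusted p of 0.05. Values were above 0 for 43 of 54 members at 6 h, beside 46.1% of all genes, and for 46 of 54 at 1 h, beside 48.7%, where the contrast was known when the family was chosen.

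Averaging the 1 h and 6 h differences used the same mice as the comparisons above, and includes the 1 h contrast that was known when the family was chosen. The p-values and counts of this average are therefore given as a description and support nothing about the family. By edgeR 0 members were called (0.0762% of all genes were). The members of smallest adjusted p were these. Pcdhb13 had a log2 fold change of 0.25 ± 0.079 (SE, edgeR adjusted p = 0.0904), Pcdhga5 of 0.25 ± 0.079 (adjusted p = 0.0912) and Pcdhb7 of 0.29 ± 0.092 (adjusted p = 0.0938). DESeq2 called 2 members, Pcdhb7 and Pcdhga5, and over all genes it called 947 higher and 336 lower. In DESeq2 36373 of 46603 genes received no adjusted p. Without vehicle mouse 5 of the 1 h group, edgeR called 3 members, Pcdhb7, Pcdhb9 and Pcdhga5. That fit called 816 genes higher and 390 lower of 17204 tested.

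At an unadjusted p under 0.05 by edgeR, 10 members were higher on average, beside 11.5% of all genes, and Pcdhgc3 was lower, beside 8.96% of all genes. The 10 members make 18.5% of those tested. No member was without overlap in the same direction at both times, beside 0.838% of all genes that were so higher and 0.252% lower. The count of 1 lower was 0 without the 4 libraries low in choroid plexus content and after a correction for GC content and length. The medians were 0.14 (alpha), 0.13 (beta) and 0.049 (gamma), and -0.013 over all genes. The gamma median was 0.023 without beta-sitosterol mouse 17, 0.074 without beta-sitosterol mouse 20, 0.082 without vehicle mouse 5, 0.088 without beta-sitosterol mouse 9 and 0.031 with a stricter filter on low counts. All 12 alpha members tested had positive averages, from 0.043 to 0.35, as did 19 of 21 beta and 17 of 21 gamma members. The highest of these, Pcdha8, was near the filter, and without the 4 libraries of lowest choroid plexus content its average was 0.17.

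Pcdhb7, the third highest beta member per kilobase, had 8.93, 9.90, 10.5 and 10.9 CPM in beta-sitosterol mice at 1 h, against 6.32, 7.85, 8.15 and 10.1 CPM in vehicle mice. At 6 h it had 9.52, 10.2, 11.0 and 12.8 CPM with beta-sitosterol, against 8.06, 8.41, 8.50 and 11.0 with vehicle. At each time 1 vehicle mouse lay among the beta-sitosterol mice and the other 3 lay below them. The beta members of higher level per kilobase had overlapping groups. Pcdhb9 averaged 14.3 ± 0.87 CPM with beta-sitosterol and 12.9 ± 1.93 with vehicle at 1 h, and 15.03 ± 0.83 with beta-sitosterol and 13.6 ± 0.71 with vehicle at 6 h (SD, n = 4 each). Pcdhb17 averaged 15.8 ± 2.56 with beta-sitosterol and 14.7 ± 1.22 with vehicle at 1 h, and 16.9 ± 1.57 with beta-sitosterol and 15.3 ± 1.48 with vehicle at 6 h.

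Whether the effect of beta-sitosterol differed between the times was tested by an interaction. No member was called, 0% of all genes were, and every member's adjusted p was 1.00 by edgeR. At an unadjusted p under 0.05, Pcdhb11 had the larger effect at 6 h, beside 0.956% of all genes, and Pcdhb13 the larger effect at 1 h, beside 0.962%. Their differences, the 6 h effect minus the 1 h effect, were 0.44 ± 0.20 and -0.40 ± 0.16 on the log2 scale (SE). Both contain the 1 h contrast known when the family was chosen, in which Pcdhb13 stood out. They are therefore a description, and nothing about dependence on time is read from them.

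**Figure D4:**
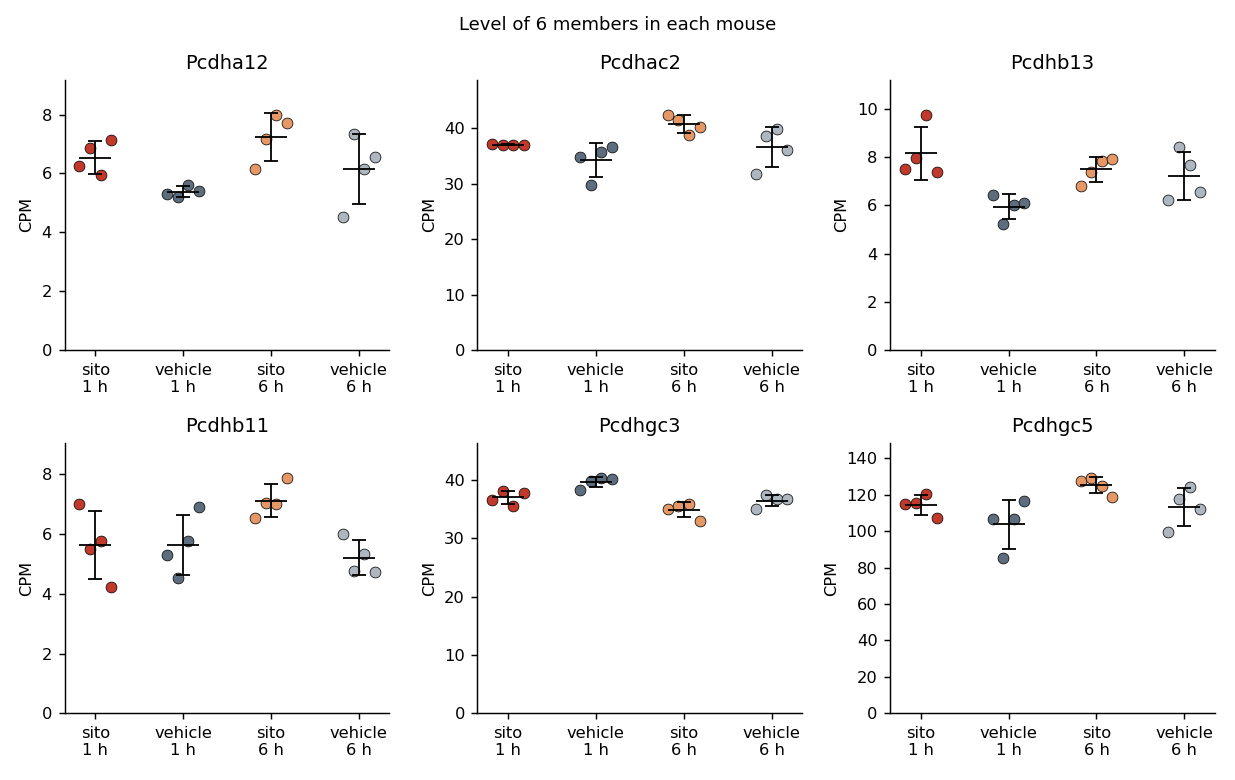
CPM of Pcdha12, Pcdhac2, Pcdhb13, Pcdhb11, Pcdhgc3 and Pcdhgc5 in each mouse; sito is beta-sitosterol, points are mice, and bars are the mean ± SD of 4 mice. Pcdhb13 separates the groups at 1 h (7.39 to 9.76 with beta-sitosterol, 5.23 to 6.45 with vehicle) and Pcdhb11 at 6 h (6.54 to 7.85 with beta-sitosterol, 4.74 to 6.00 with vehicle).

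The 2 most abundant C-type members of the gamma cluster had log2 fold changes of opposite sign. Pcdhgc5 had 107, 115, 116 and 120 CPM in beta-sitosterol mice at 1 h, against 85.1, 106, 107 and 116 CPM in vehicle mice. At 6 h it had 119, 125, 127 and 129 CPM with beta-sitosterol, against 99.8, 112, 118 and 124 with vehicle. The groups overlapped at both times, and the averaged log2 fold change was 0.14 ± 0.056 (SE, edgeR adjusted p = 0.157).

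Pcdhgc3 had 35.6, 36.6, 37.8 and 38.1 CPM in beta-sitosterol mice at 1 h, against 38.3, 39.8, 40.2 and 40.3 CPM in vehicle mice, with no overlap. At 6 h it had 33.0, 35.0, 35.5 and 35.9 CPM with beta-sitosterol, against 35.0, 36.7, 36.8 and 37.4 with vehicle, with overlap. Its log2 fold changes were -0.099 ± 0.045 at 1 h, -0.065 ± 0.045 at 6 h and -0.082 ± 0.032 on average (SE, edgeR adjusted p = 0.154 for the average). After a correction for GC content and length, fitted with limma, the values were -0.0016 at 6 h and -0.035 on average. Of its own bases 46.1% lay opposite BC037039, so its counts may depend on the strand setting of the counting, which is not given.

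Shares of the gamma sum do not depend on library scaling, and were compared after these values were seen. Pcdhgc5 took 33.2% to 33.7% of the gamma sum in beta-sitosterol mice at 1 h, against 29.8% to 33.1% in vehicle mice. At 6 h it took 34.2% to 35.2% with beta-sitosterol, against 32.2% to 33.8% with vehicle. The groups were apart at both times, though at 1 h the nearest mice had 33.21% and 33.09%. How many other members' shares separated in this way was not counted, and the 1 h contrast was known when the family was chosen. Shares of one sum are also linked, since a larger share of 1 member leaves less for the others. Pcdhgc3 took 9.93% to 11.9% with beta-sitosterol at 1 h, against 11.4% to 13.9% with vehicle, and 9.43% to 9.97% with beta-sitosterol at 6 h, against 10.003% to 11.3% with vehicle. Those shares overlapped at 1 h and were separate at 6 h. The 3 C-type members together took 47.7% ± 1.05 with beta-sitosterol and 47.7% ± 0.23 with vehicle at 1 h (SD, n = 4 each). At 6 h they took 47.6% ± 0.75 with beta-sitosterol and 47.2% ± 0.17 with vehicle.

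Of the remaining C-type members, Pcdhac2 alone separated the groups at 1 h. Pcdhgc4 averaged 11.4 ± 0.60 CPM with beta-sitosterol and 11.1 ± 0.79 with vehicle at 1 h, and 12.2 ± 0.70 with beta-sitosterol and 11.9 ± 1.08 with vehicle at 6 h (SD, n = 4 each). Pcdhac2 had 36.9, 37.0, 37.0 and 37.2 CPM in beta-sitosterol mice at 1 h, against 29.8, 34.8, 35.8 and 36.7 CPM in vehicle mice. At 6 h it had 38.8, 40.2, 41.5 and 42.4 CPM with beta-sitosterol, against 31.7, 36.0, 38.6 and 39.8 with vehicle. The 4 beta-sitosterol mice at 1 h were nearly equal and just above the highest vehicle mouse, and at 6 h the groups overlapped. The averaged log2 fold change was 0.13 ± 0.049 (SE, edgeR adjusted p = 0.135). Pcdhac1, the weaker alpha C-type, averaged 4.49 ± 0.54 CPM with beta-sitosterol and 4.06 ± 0.62 with vehicle at 1 h, and 4.92 ± 0.57 with beta-sitosterol and 4.41 ± 0.33 with vehicle at 6 h (SD, n = 4 each).

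The design also sets 6 h against 1 h within each treatment, with the same mice as above. No member was called in beta-sitosterol mice (0% of all genes called, smallest adjusted p 0.634 by edgeR) or in vehicle mice (0% of all genes called, smallest adjusted p 0.340). Log2 fold changes of 6 h against 1 h were positive for 43 of 54 members in beta-sitosterol mice, beside 46.8% of all genes, and for 47 of 54 in vehicle mice, beside 51.3% of all genes. The cluster medians were 0.18 (alpha), 0.069 (beta) and 0.075 (gamma) in beta-sitosterol mice and 0.17, 0.13 and 0.080 in the same order in vehicle mice. Without beta-sitosterol mouse 9, the lowest beta and gamma library of its group, the beta median in beta-sitosterol mice was 0.00022. Leaving out mouse 18 gave 0.030, and leaving out mouse 6 gave 0.045 with a gamma median of 0.12. The gamma median in these mice was 0.13 when either mouse 8 or mouse 20 was left out. In vehicle mice, leaving out mouse 3 gave a beta median of 0.051 and a gamma median of 0.046. Leaving out mouse 13 gave a beta median of 0.076, and the gamma median there was 0.13 when mouse 5 and 0.16 when mouse 11 was left out. Without the 4 libraries of lowest choroid plexus content the beta median was 0.030 in beta-sitosterol mice and the gamma median 0.17 in vehicle mice. With choroid plexus content as a covariate the beta median in beta-sitosterol mice was 0.039. At an unadjusted p under 0.05, 3 members were higher at 6 h in beta-sitosterol mice (beside 3% of all genes) and 0 lower (beside 3.97%). In vehicle mice 8 were higher (beside 5.02%) and Pcdhgc3 lower (beside 5.58%). The alpha sums of 6 h and 1 h did not overlap in beta-sitosterol mice.

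In beta-sitosterol mice 4 members were higher at 6 h than at 1 h without overlap, Pcdha6, Pcdhac2, Pcdhga4 and Pcdhgb2, beside 2.61% of all genes, and 0 were lower, beside 2.67%. In vehicle mice Pcdha3, Pcdhb20 and Pcdhga7 were higher without overlap, beside 2% of all genes, and Pcdhgc3 was lower, beside 2.81%. Several of these were named after their values were seen. In vehicle mice Pcdhb20 had 9.13, 9.36, 9.60 and 10.2 CPM at 6 h, against 7.71, 7.96, 8.22 and 8.52 CPM at 1 h. All 4 mice at 6 h were above those at 1 h, with a log2 fold change of 0.24 ± 0.081 (SE, edgeR adjusted p = 0.340). Pcdhgc3 had a log2 fold change of -0.12 ± 0.045 between the times in vehicle mice (SE, edgeR adjusted p = 0.393) and of -0.086 ± 0.045 in beta-sitosterol mice (adjusted p = 0.731).

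Spread between mice of a group was set beside that of other genes of similar level. The biological coefficient of variation estimated by edgeR had a median of 0.108 over the 54 members, while the trend over all genes gave a median of 0.135 at their levels. Of the members 14.8% lay above the trend, beside 24.1% of all 17055 genes. No alpha member was above it, and 4 beta and 4 gamma members were. Among the C-type members, Pcdhgc3 had the lowest value in the family at 0.0482.

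**Figure D5:**
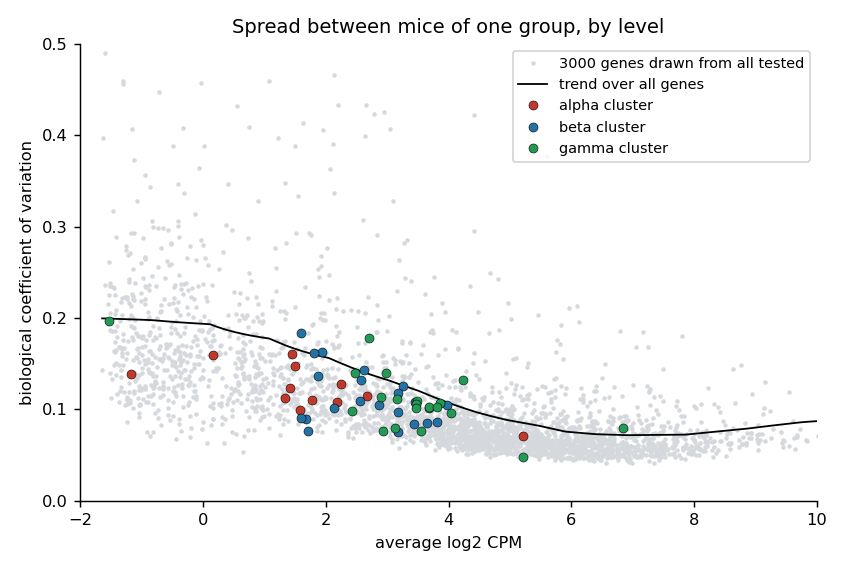
Biological coefficient of variation of the 54 members tested, by average log2 CPM, over 3000 genes drawn from all tested (grey) and the trend over all genes (line). Most members lie below the line, and 8 of 54 lie above it.

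Genes known to act with the clustered protocadherins were also measured, and 0 of them were called in the 3 beta-sitosterol comparisons. The averaged values below stand beside all genes tested, of which 46.1% had a positive average. These averages contain the 1 h contrast known when the family was chosen, and are a description. Of 11 genes of promoter choice and looping, 9 had positive averaged log2 fold changes and 6 had an unadjusted p under 0.05 by edgeR, all higher, beside 11.5% of all genes. Pds5b, a cohesin regulator, had an averaged log2 fold change of 0.16 ± 0.039 (SE, edgeR adjusted p = 0.0555). Smc1a, a cohesin subunit, had 0.21 ± 0.053 (adjusted p = 0.0611), and Ctcf 0.098 ± 0.034 (adjusted p = 0.118). The 2 genes with negative averages were Rad21 with -0.048 ± 0.032 and Mau2 with -0.040 ± 0.035 (SE). Of 8 genes of promoter silencing, 4 were positive and 4 negative. Smchd1, which in mice represses the clusters, had 0.14 ± 0.040 (adjusted p = 0.0730).

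Of 13 genes of signalling and proteolysis, 9 had positive averages and 5 an unadjusted p under 0.05, all higher, beside 11.5% of all genes. Nlgn1, a synaptic adhesion protein that gamma protocadherins bind in mice, had 0.15 ± 0.037 (SE, edgeR adjusted p = 0.0570). Of 8 genes of the WAVE complex, which links protocadherin tails to actin, 6 were positive and 6 had an unadjusted p under 0.05, all higher, again beside 11.5% of all genes. Of 12 non-clustered protocadherins 7 were positive, with a median of 0.031. Pcdh20 had an averaged log2 fold change of 0.20 ± 0.063 (adjusted p = 0.0917), and Pcdh15 one of -0.25 ± 0.080 (adjusted p = 0.0992).

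No marker of another cell type was called in any comparison (edgeR adjusted p under 0.05). The 8 astrocyte markers all had negative log2 fold changes at both times. At an unadjusted p under 0.05 by edgeR, 8 of 8 were lower at 1 h, beside 4.44% of all genes. At 6 h 0 were, beside 5.77%. The astrocyte markers summed to 5716 to 6165 CPM with beta-sitosterol at 1 h, against 6256 to 7179 with vehicle. At 6 h they summed to 5259 to 5948 CPM with beta-sitosterol, against 5681 to 6370 with vehicle. All 14 choroid plexus markers were negative too, with sums of 1261 to 2633 CPM with beta-sitosterol at 1 h, against 184 to 7029 with vehicle, and of 192 to 4487 with beta-sitosterol at 6 h, against 182 to 3686 with vehicle. The vehicle mouse of lowest protocadherin sums at 1 h, mouse 3, had the most Ttr, a choroid plexus transcript, at 6136 CPM, while mouse 11, the lowest at 6 h, had 2610 CPM, within the range of its group. Ttr was below 100 CPM in 4 libraries, vehicle mice 5 and 14 and beta-sitosterol mice 17 and 19.

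Of 10 excitatory neuron markers, 8 at 1 h and 9 at 6 h had positive log2 fold changes. Their sums were 8310 to 8682 CPM with beta-sitosterol at 1 h, against 7648 to 10002 with vehicle, and 8052 to 9235 with beta-sitosterol at 6 h, against 8134 to 8932 with vehicle. Inhibitory neuron markers were positive in 7 of 7 at 1 h and 4 of 7 at 6 h. They summed to 671 to 785 CPM with beta-sitosterol at 1 h, against 602 to 656 with vehicle. At 6 h they summed to 743 to 846 CPM with beta-sitosterol, against 661 to 838 with vehicle. The 9 microglial markers were negative at both times. Oligodendrocyte markers were negative in 10 of 10 at 6 h and in 5 of 10 at 1 h, and endothelial markers in 6 of 6 at 1 h and 5 of 6 at 6 h. Red blood cell markers were positive in 4 of 5 at 1 h and 5 of 5 at 6 h, and meningeal fibroblast markers in 2 of 6 at 1 h and 4 of 6 at 6 h. No marker of any list was at 0. Without the 4 libraries low in Ttr, the log2 fold change of Pcdhb13 at 1 h was 0.47 and that of Pcdhb11 at 6 h was 0.47. The part of cell composition in the protocadherin values was not tested beyond this and the covariate given above.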

How the data were processed

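Hippocampal RNA of 16 mice was sequenced from TruSeq mRNA libraries, per the labels. The deposited raw table holds whole-number counts per Ensembl gene, made by the authors. The authors' other deposited file is a signal, the same counts times 1 factor per library (0.853 to 1.11). It was used for the limma alternative, as log2(value + 1). The submitters' processing notes name build GRCm38 and, without saying which step each did, HTSeq 0.6.1p1, TopHat2 2.0.10, DESeq2 1.6.3, CASAVA 1.8.2 and cutadapt. Whether counting used strand, and with which annotation release, is not given in the sources used here.

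Members and lists were chosen with earlier results of these data known. Counts were tested with edgeR 4.0.16 in R 4.3.3 (TMM, filterByExpr, robust quasi-likelihood fit of all 4 groups, 12 residual degrees of freedom, Benjamini-Hochberg adjustment over 17055 genes at 0.05). The p-values set a difference between group means against the spread between mice. The steps were tested on simulated data. GENCODE M21 gave gene models. Values were given for the C-type members, the 3 highest and the lowest tested member of each cluster per kilobase, the 3 members of smallest p in each direction of each beta-sitosterol comparison, members called, and Pcdhb13. Alternatives were DESeq2 1.42.0 and its size factors, limma 3.58.1, no or a stricter filter, only the groups compared, a choroid plexus covariate, leaving out libraries under 100 CPM of Ttr, a GC and length correction, and each mouse left out. Sequences are not shown.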

Additional observations from a re-analysis of the deposited data

Results flagged for a closer look

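In 104 groups of 4 mice (the 23 members described by mouse and the 3 cluster sums), 5 single values stood apart from their group by Dixon's test at the 95% level, and chance gives about 5.2. Pcdha8 had 0.690 CPM in beta-sitosterol mouse 17 at 6 h, with the others at 0.343 to 0.384. Pcdha9 had 3.47 CPM in beta-sitosterol mouse 20 at 6 h, with the others at 5.05 to 5.34. Pcdhb7 had 11.0 CPM in vehicle mouse 13 at 6 h, with the others at 8.06 to 8.50. Pcdhb21 had 3.00 CPM in beta-sitosterol mouse 9 at 1 h, with the others at 3.43 to 3.47, and 3.30 CPM in vehicle mouse 5 at 1 h, with the others at 2.72 to 2.76.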

How the results depend on the processing

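No member was called in 5 of the 6 comparisons under any alternative run. For DESeq2 this is a weak check of beta-sitosterol against vehicle at 1 h and at 6 h. In each, 43144 of 46603 genes received no adjusted p, and members among those genes could not be called. Averaged over both times, 2 were called by DESeq2, and 0 to 3 when single mice were left out (3 without vehicle mouse 5 of the 1 h group). Over all genes DESeq2 called 947 higher and 336 lower there, and the fit without vehicle mouse 5 called 816 higher and 390 lower. The cause of the members' changed counts was not tested. Cluster medians, examined in every comparison but the interaction, and cluster sums, examined between treatments with single mice left out and with fewer alternatives, kept their sign. With single mice left out, the median log2 fold changes at 1 h were 0.12 to 0.26 (alpha), 0.081 to 0.21 (beta) and 0.035 to 0.13 (gamma), and at 6 h 0.069 to 0.16, 0.0062 to 0.14 and 0.036 to 0.11. Averaged over both times they were 0.10 to 0.17, 0.097 to 0.16 and 0.023 to 0.088. Among members described by mouse, values that were not called turned sign in places. Without the libraries low in Ttr, the 6 h value was -0.053 for Pcdhb21 (0.060 with all libraries), -0.17 for Pcdha8 (0.080), -0.18 for Pcdha9 (0.0074) and -0.012 for Pcdhac1 (0.16). That fit lacked beta-sitosterol mice 17 and 19 and vehicle mouse 14 of the 6 h groups. Pcdha8 was -0.21 at 6 h without beta-sitosterol mouse 17. Sign also turned under at least 1 alternative for Pcdhb2, Pcdhb13, Pcdhgb4, Pcdhgb5, Pcdhga11 and Pcdhgc4 at 6 h, for Pcdhb4, Pcdhb11, Pcdhga3 and Pcdhgb5 at 1 h, and for Pcdha1, Pcdhga3, Pcdhgb5 and Pcdhga11 on average. Pcdhgc3 came near 0 at 6 h after the GC and length correction. Counts of members at an unadjusted p under 0.05 were added after seeing the data, and changed most, as given in the report. The fit of only the groups compared gives no value for the averaged and interaction comparisons, which use all 4 groups. No paired analysis was possible because the labels give each mouse a number of its own and share none between groups. Depth limits Pcdha8 and Pcdhga10, with 5 to 19 and 2 to 11 reads per library.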
